A study of Arabidopsis thaliana with 22 samples.

Results

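The 150 probe sets that varied least over a day in Arabidopsis leaves were taken from 1573 that could be ranked, out of 22746 probe sets on the array that were not controls. A probe set could be ranked if it was annotated to a single gene, which held for 13513, and if its mean intensity over the 22 arrays was at least 200. Each was ranked by the standard deviation (SD) of log2(intensity + 4) over all 22 arrays, and the 150 lowest were kept, which is 9.54% of those ranked. They stood for 150 different genes of 1570 ranked, called members here, and the other 1423 probe sets are called the rest. The members were thus chosen by the same intensities that are described here, so their small spread is a description and carries no test.

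The study followed transcript levels in leaves of Col-0 plants, the common laboratory accession, at growth stage 3.90 under 12 h of light and 12 h of darkness. Leaves were taken at 0, 1, 2, 4, 8, 12, 13, 14, 16, 20 and 24 h, and 20 plants were pooled. Each of the 11 time points had 2 arrays, which the series calls biological replicates; they are named replicate series 1 and 2 here, and all plants were of 1 genotype, with the hour as the difference between groups. Whether light or darkness began at 0 h is not put in words in the labels, and an age tag gives 5 h for the arrays called 8 h and 14 h for those called 16 h. The arrays were Affymetrix ATH1 arrays with linear intensities, scaled so that every array had the same trimmed mean, and the array medians ran from 37.6 to 44.7. In pooled leaves, fewer cells of a type and less RNA per cell cannot be told apart. The leaf genes RCA, the activase of Rubisco, and PRK, phosphoribulokinase of the Calvin cycle, averaged 3689 and 3392, while the root genes PYK10 and EXPA7 averaged 13.2 and 14.0. The ratio of the 3′ to the 5′ probe set of the actin control, a sign of RNA integrity, was 3.20 ± 1.21 in series 2 and 1.85 ± 0.28 in series 1 (SD, n = 11 arrays each), with a maximum of 6.31 in series 2 at 1 h.

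Transcripts of the clock, of photosynthesis and of starch metabolism are known to swing widely over the day in leaves, while many genes of basic cell upkeep are held near a steady level. Some of the steadier ones serve as reference genes, against which other transcripts are scaled in quantitative PCR. TIP41L, which encodes a TIP41-like protein, and AP2M, the medium subunit of adaptor complex 2 in endocytosis, are used in this way in Arabidopsis.

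The members spanned a narrow range of change. Their SD on the log2 scale ran from 0.085 to 0.172 with a median of 0.152, and that of the rest from 0.172 to 2.09 with a median of 0.311. The highest of the 22 arrays exceeded the lowest by 1.27 to 1.74 times in the members (median 1.49) and by a median of 2.31 times in the rest. All 150 members stayed within a 2-fold range over the day, as did 485 of the rest (34.1%), and 77 members stayed within 1.5-fold, as did 3 of the rest. At the threshold the spread was continuous: the last 3 members, AT1G51980, AT4G13200 and AT4G02580, all had an SD of 0.172, and the next 3 probe sets, AT4G02530, AT3G04470 and AT1G02475, had 0.172, 0.173 and 0.173.

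**Figure D1:**
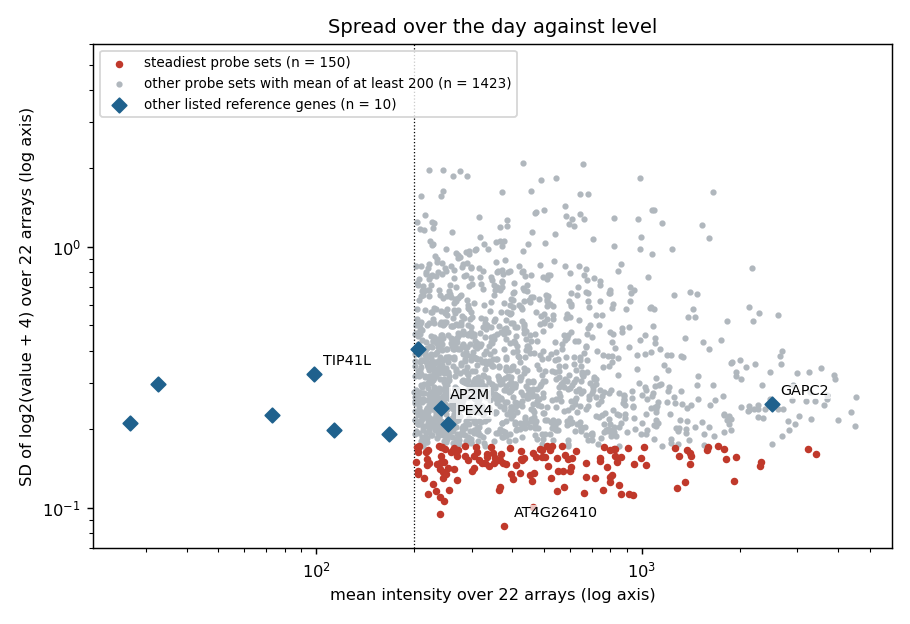
Each point is a probe set, with its mean intensity over 22 arrays (log axis) against the SD of its log2(value + 4) (log axis); red points are the 150 members, grey points the other 1423 that could be ranked, and diamonds the other 10 listed reference genes with a probe set, of which 6 lie left of the dotted line at the minimum mean of 200. The members form the lower edge from 0.085 to 0.172, and no diamond reaches it, which for diamonds right of the dotted line follows from the rule.

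Only 26 of the 150 members carried a name beyond a locus or clone code in the annotation used here, as did 381 of the 1573 ranked probe sets, so the processes below can be read for those 26 and not for the other 124. The named members had SDs from 0.094 to 0.171 (median 0.156) and the other members from 0.085 to 0.172 (median 0.151). The groups of named members below were formed from what each gene is known to do, after their values were seen. Groups without a list have no count of ranked genes outside the set, so nothing is read from their size.

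The steadiest probe set was that of AT4G26410, a gene on the list of reference loci, for which the annotation gives no name. Over the 11 time points, in order of hour, its series 1 arrays read 400.0, 367.6, 388.3, 422.7, 389.4, 397.1, 382.9, 380.7, 397.8, 386.7 and 350.1. Its series 2 arrays read 357.0, 367.4, 350.5, 421.2, 379.2, 385.1, 370.8, 332.8, 358.2, 354.8 and 378.5 at the same hours. The level was highest at 4 h in both series, and the whole range from 332.8 to 422.7 was 1.27-fold. Its mean was 378 ± 22.6 (SD, n = 22 arrays) and its SD on the log2 scale 0.085.

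The second was AP4M (AT4G24550), the medium subunit of adaptor complex 4, which sorts cargo at the trans-Golgi network. AP4M ran from 208.4, in the 1 h array of series 2, over a median of 243.25 to 266.3, in the 24 h array of series 1. The range was 1.28-fold and the SD 0.094, the only one besides that of AT4G26410 under 0.1. Most of the other low-spread members had locus codes only. AT2G02510, next in the ranking, ran from 396.0 over a median of 464.1 to 553.8 (SD 0.10). AT5G60160 ran from 209.9 over 244.4 to 301.6 (SD 0.11), and both its extremes came from the 1 h arrays. AT5G58740 and AT4G20150 followed, with SDs of 0.110 and 0.112. For AT4G20150 the SD was 0.055 in series 1 and 0.151 in series 2, so its rank rests on arrays of unequal spread.

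RBP45B, an RNA-binding protein with RNA recognition motifs, was in place 8 and ran from 729.6 over a median of 860.05 to 995.9 (SD 0.113). SIRB, which completes the synthesis of siroheme, the cofactor of nitrite and sulfite reductases in plastids, was in 20th place with 196.8, 229.7 and 260.5 (SD 0.124). The remaining probe sets among the first 20 were AT2G46230, AT4G26710, AT4G30010, AT1G21630, AT5G40810, AT1G36320, AT1G42960, AT1G35340, AT3G26070, AT1G26850, AT1G14270 and AT1G48440. Their SDs ran from 0.113 to 0.123, and their highest array exceeded the lowest by 1.28 to 1.41 times. AT3G26070 is the 1 member whose probe set type can share probes with related transcripts.

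Membrane traffic was represented by AP4M and 2 more named members. ARA6, a plant-specific Rab5 GTPase of endosomes, ran from 189.1 over a median of 240.0 to 323.1 (SD 0.157), with the high value in the 20 h array of series 1 standing alone. CEF, a Sec24 protein of the COPII coat on vesicles leaving the endoplasmic reticulum, ran from 207.8 over 244.55 to 320.5 (SD 0.149). Of the 10 ranked genes on the vesicle traffic list, whose median SD was 0.247, 2 were members, AP4M and ARA6. RAB6A and SEC6, a Rab GTPase and a subunit of the exocyst, had SDs of 0.241 and 0.253 and lay outside, as did AP2M.

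Protein synthesis, processing and turnover gave 7 named members. ALATS, which charges tRNA with alanine, ran from 386.6 over a median of 498.1 to 599.2 (SD 0.167). MAP1D, which removes the first methionine of organelle proteins, ran from 200.1 over 256.9 to 307.3 (SD 0.142). MPPBETA, a subunit of the peptidase that trims imported mitochondrial proteins, ran from 626.8 over 807.4 to 948.0 (SD 0.133). These 3 stayed within 1.51-fold to 1.55-fold over the day. CLPP4, a subunit of the plastid Clp protease, ran from 615.5 over 732.9 to 892.5 (SD 0.155). UBC27, a ubiquitin-conjugating enzyme, ran from 178.7 over 222.55 to 272.0 (SD 0.149). UBC27 was the only member among 7 ranked genes on the ubiquitin list, whose other members reached an SD of 0.446 in UBC19. The initiation factor EIF4A-2 (SD 0.216) and the proteasome subunit RPN12a (SD 0.232) were not members.

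The 2 members on the list of ribosomal proteins, rps2 and rps19, are encoded in the plastid genome. That list was drawn by name, so ribosomal protein genes given only a locus code were not on it and were not counted. The rps2 probe set ran from 1100.9 over a median of 1388.8 to 1643.6 (SD 0.147), and that of rps19 from 1443.3 over 1730.8 to 2176.7 (SD 0.168). The other 12 ranked genes of that list had SDs up to 0.984 in rps15 and 1.21 in rpl20. In all, 2 of 64 ranked plastid genes were members (3.13%), as were 148 of 1504 ranked nuclear genes (9.84%). The median share of variance between the replicate series was 21.5% over the plastid genes and 6.66% over the nuclear ones. Labelling started from an oligo-dT primer, per the labels, and plastid transcripts mostly carry no stable poly(A) tail. These values may follow the priming as well as the level, which was not tested.

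Thiol and redox enzymes gave 5 named members. No list of such genes was drawn, so the share of ranked ones that were members is not known. NTRC, the chloroplast thioredoxin reductase with its own thioredoxin domain, ran from 384.7 over a median of 484.75 to 608.2 (SD 0.167). NADP-dependent malate dehydrogenase (AT5G58330), a chloroplast enzyme that is switched on in light by thioredoxin, ran from 739.0 over 914.75 to 1125.7 (SD 0.170). CcdA, which carries reducing power across the thylakoid membrane, ran from 286.6 over 370.7 to 447.5 (SD 0.149). These 3 transcripts stayed within 1.52-fold to 1.58-fold over the cycle. PRXIIF, the mitochondrial peroxiredoxin, had a range of 1.54-fold and an SD of 0.161. GSTL3, a glutathione transferase of the lambda class, had a range of 1.53-fold and an SD of 0.170.

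Chloroplast structure and assembly gave 2 named members. CURT1A (AT4G01150), which curves thylakoid membranes at the margins of grana, ran from 2447.6 over a median of 3229.3 to 4048.3 (SD 0.168). HCF101, which delivers iron-sulfur clusters for photosystem I, ran from 416.0 over 490.8 to 615.1 (SD 0.156). None of the 5 ranked genes on the photosynthesis list were members, against 9.54% of all ranked probe sets, and nothing is read from 0 of 5. That list too was drawn by name and left out genes given only a locus code. The 5 genes on it ran from PSBW, a small subunit of photosystem II (SD 0.240), to the antenna gene LHCB4.2 (SD 0.833), whose highest array exceeded its lowest by 6.02 times.

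In primary metabolism, the glycolytic enzyme TPI, triose phosphate isomerase, ran from 1468.9 over a median of 1827.1 to 2209.1 (SD 0.153). ACLA-1, a subunit of ATP-citrate lyase, which supplies acetyl-CoA in the cytosol, ran from 458.4 over 601.35 to 725.2 (SD 0.143). COS1, lumazine synthase of riboflavin synthesis, ran from 202.3 over 260.3 to 310.8 (SD 0.167). The glycolytic gene GAPC2, a classic reference gene, was not a member, with values from 1814.3 over 2504.8 to 3434.6 (SD 0.249). The remaining named members were scpl29, a serine carboxypeptidase-like protein (SD 0.146), ILR3, a basic helix-loop-helix transcription factor of the iron response (SD 0.164), NCL (AT1G53210), a sodium and calcium exchanger-like protein (SD 0.167), and CYTC-1.

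The pair of cytochrome c genes, electron carriers of the mitochondrial respiratory chain, had unlike courses, and CYTC-2 was added after its values were seen. CYTC-1 was a member, running from 722.8, in the 20 h array of series 1, over a median of 993.0 to 1251.6, in its 4 h array (SD 0.171). CYTC-2 ran from 86.8 over a median of 135.85 to 629.1, with an SD of 0.841 and rank 1478. Its arrays of series 1 and 2 read 463.3 and 629.1 at 13 h, against 103.1 and 119.9 at 8 h. At the same hours CYTC-1 read 987.2 and 1020.7 at 13 h, against 1168.1 and 1220.7 at 8 h. The list of respiratory and organic acid dehydrogenase genes, drawn by name and so holding chloroplast ones too, had 11 ranked genes with a median SD of 0.215. Of these 11, CYTC-1 and the chloroplast malate dehydrogenase were members. Respiratory genes given only a locus code were not on the list, so the share of respiration among all members is not known from it.

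Several lists held no member. The 4 ranked genes on the actin and tubulin list, all tubulins, had a median SD of 0.449 and reached 0.681 in TUB5. The 4 ranked genes on the chaperone list had a median SD of 0.592. Hsp70-2, a heat shock protein, reached 621.6 in its highest array, against 110.3 in its lowest. The 3 ranked genes on the vacuolar proton pump list had a median SD of 0.221. The closest of these 3, AT3G58730, was 210th in the ranking with 0.188. These lists hold few ranked genes and were drawn by name, so members given only a locus code could not be on them. Nothing particular to a process is read from a count of 0.

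**Figure D2:**
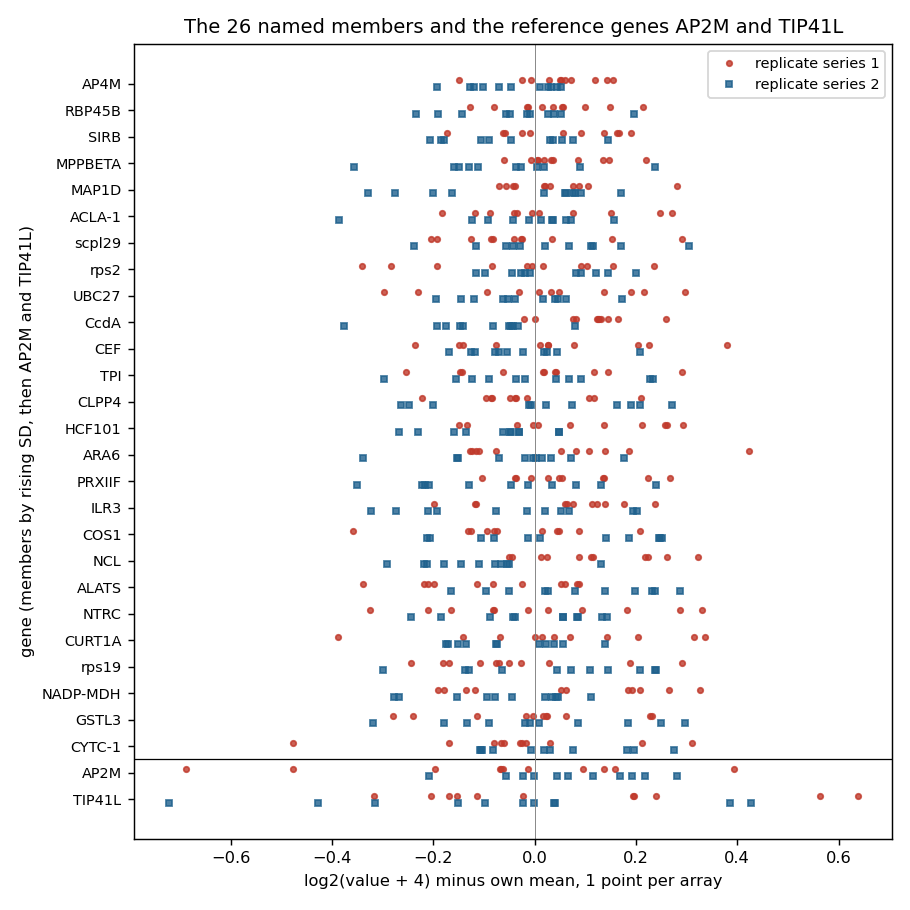
Each row is a gene and each point 1 of its 22 arrays, as log2(value + 4) minus the gene's own mean; circles are replicate series 1, squares series 2. The 26 named members are ordered by rising SD from AP4M (0.094) to CYTC-1 (0.171), with AP2M (0.241) and TIP41L (0.327) below the line.

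AP2M and TIP41L were less steady than every member, which for AP2M, a ranked gene outside the set, follows from the rule. AP2M (AT5G46630, "adaptor protein-2 mu-adaptin") had an SD of 0.241, and 513 of the 1573 ranked probe sets (32.6%) had a lower one. Over the 11 time points, in order of hour, its series 1 arrays read 235.2, 254.1, 313.3, 261.5, 226.7, 206.6, 145.8, 169.6, 226.3, 265.5 and 227.2. Its series 2 arrays read 257.6, 237.4, 271.8, 267.6, 228.2, 204.9, 233.6, 244.9, 276.7, 289.3 and 248.9 at the same hours. The series came apart at 13 and 14 h, where series 1 held the lowest values. The SD was 0.30 in series 1 and 0.14 in series 2, and without the 13 h array of series 1 it was 0.19, with 225 ranked probe sets below it. In series 2 alone AP2M would have been in 123rd place and thus within the lowest 150, while in series 1 alone it was in place 846.

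TIP41L (AT4G34270) averaged 98.3 ± 23.6 (SD, n = 22 arrays), under the minimum mean of 200, so it could not be ranked. Its SD was 0.327, and 907 of the 1573 ranked probe sets (57.7%) had a lower one. Over the 11 time points, in order of hour, its series 1 arrays read 88.2, 110.3, 94.3, 113.9, 143.5, 151.4, 110.2, 82.6, 76.1, 85.8 and 84.8. Its series 2 arrays read 98.6, 89.3, 95.8, 126.5, 130.2, 85.9, 94.3, 76.2, 98.5, 70.2 and 56.5 at the same hours. The values at 4 and 8 h were high in both series, the lowest values came at 16 h in series 1 and at 24 h in series 2, and the series disagreed most at 12 h. Its SD was 0.32 in series 1 and 0.33 in series 2, so its spread did not come from 1 series alone.

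**Figure D3:**
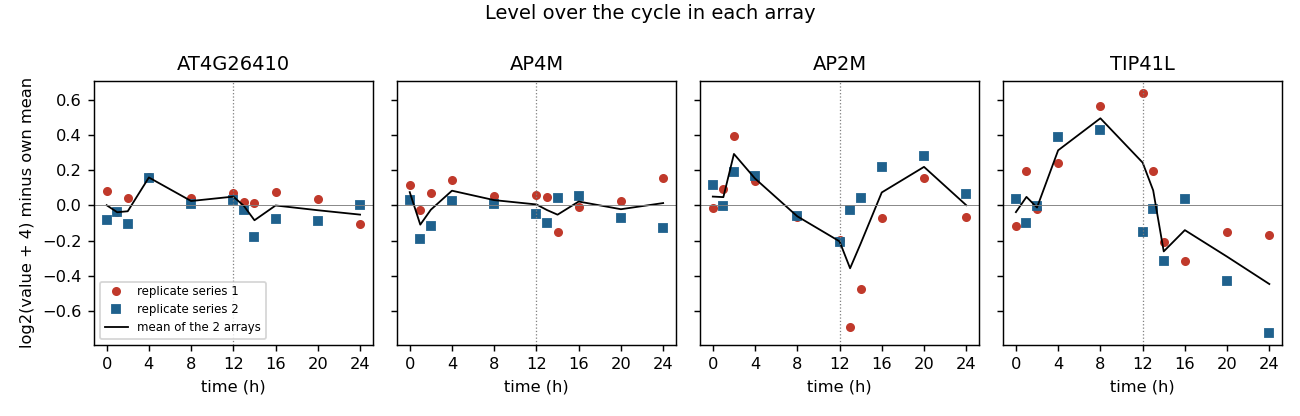
Each panel is a gene over time in h, as log2(value + 4) minus its own mean; circles are replicate series 1, squares series 2, lines the mean of the 2 arrays, and the dotted line marks 12 h. The members AT4G26410 (range 1.27-fold) and AP4M (1.28-fold) stay near 0, while AP2M spans 2.15-fold, with its low point in series 1 at 13 h, and TIP41L 2.68-fold.

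The members were chosen on these same arrays, so no test is read for them, and the tests below are read for TIP41L and AP2M. TIP41L was not ranked. AP2M was ranked on these arrays and fell outside by its SD, so its test is not independent of the rule. The 5 time points from 13 to 24 h were set against the 5 from 1 to 12 h, the parts of the cycle on either side of 12 h. TIP41L read 56.5 to 110.2 with a median of 83.7 in the 10 arrays from 13 to 24 h, against 85.9 to 151.4 with a median of 112.1 in the 10 arrays from 1 to 12 h. The ranges overlapped, and 10 of the 10 later arrays lay under the median of the earlier ones. TIP41L was lower from 13 to 24 h by a log2 difference of -0.43 ± 0.11 (standard error), which passed limma's test with an adjusted p of 0.00873. Without the 8 h and 16 h arrays, whose labels disagree on the hour, the difference was -0.38 with an adjusted p of 0.0567, and the call was lost. Over all alternatives this adjusted p ran from 0.00135 to 0.0567. Over all 11 time points jointly its adjusted p in limma was 0.111, and 0.0413 with the replicate series as a block. It was 0.0241 without the 12 h array of series 2, and 0.0334 without the 3 arrays of highest actin ratio, and over all alternatives it ran to 0.262.

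AP2M read 145.8 to 289.3 with a median of 239.25 in the arrays from 13 to 24 h, against 204.9 to 313.3 with a median of 245.75 in those from 1 to 12 h. Its difference of -0.10 ± 0.09 did not pass limma's test (adjusted p = 0.472), nor did the joint test of all time points (adjusted p = 0.278, and 0.0652 to 0.464 over the alternatives). For comparison, 24% of the 13648 probe sets tested passed between the parts of the cycle, with 10.8% higher and 13.1% lower from 13 to 24 h, and 26.8% passed over the time course. Of the members, 4 passed as higher and 5 as lower from 13 to 24 h, and none passed over the time course. Over the time course 1 passed with the replicate series as a block, and 1 after quantile normalization. The rule used these same arrays, and nothing is read from these counts.

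The other listed reference genes had SDs from 0.085 to 0.407. Of 23 reference loci, 11 had a probe set annotated to them alone, and 5 of those could be ranked. AT4G26410 was the 1 member. AT2G32170 (SD 0.191) and AT2G28390, annotated as MON1, an endosomal trafficking protein (SD 0.198), came next, both with means under 200. PEX4, a ubiquitin-conjugating enzyme of peroxisomes also known as UBC21, ran from 188.4 over a median of 252.7 to 324.0 (SD 0.210), and 341 ranked probe sets had a lower SD. AT5G55840 and AT5G15710 had SDs of 0.210 and 0.226, and AT5G12240 had 0.298. AT4G33380 had the highest, 0.407, with 97.8 in its lowest and 329.4 in its highest array. None of the 150 members had a higher SD than any of the 10 listed genes outside the set. For the listed genes that could be ranked, this follows from the rule and is not a finding.

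The spread of the members was also split into a part within and a part between time points. The SD between the 2 arrays of a time point had a median of 0.133 in the members and 0.230 in the rest. The SD of the 11 time-point means had a median of 0.109 in the members and 0.258 in the rest. The share of variance that lay between time points had a median of 54.4% in the members and 71.3% in the rest. With 11 means of 22 values, arrays that do not differ by hour give 47.6% on average. The members' median lay above that value and below that of the rest, with quartiles of 39.7% and 65.6%. The difference from 47.6% was not tested. Over the day the time-point means of a member spanned 0.19 to 0.60 on the log2 scale (median 0.34), against a median of 0.81 in the rest.

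Some members moved little but in the same way in both series. AT1G67250 had 94.3% of its variance between time points, and its range over the arrays was 1.46-fold. At 0, 4, 13 and 20 h its series 1 arrays read 417.7, 402.0, 285.9 and 380.2, and its series 2 arrays 402.4, 403.2, 321.4 and 377.7. The level was low from 8 to 16 h in each series, at 285.9 to 322.4 in series 1 and 315.4 to 332.0 in series 2. Its lowest array was at 13 h in series 1 and at 12 h in series 2. AT5G57330 (87.9%), AT1G26850 (84.6%), AT4G11380 (84.3%) and AT2G21960 (84.0%) followed, and 16 members had over 75% of their variance between time points. At the other end stood CcdA (16.9%), AT5G03880 (18.7%), NCL (21.1%), AT3G54210 (22.6%) and AT5G60160 (23.1%).

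In some of these members the replicate series differed instead. AT5G03880 read 806.8 to 978.5 in series 2 and 995.8 to 1151.2 in series 1, without overlap, and 72.8% of its variance lay between the series. The corresponding share was 58.3% in AT2G27680, 57.2% in CcdA, 54.0% in AT5G27470 and 50.8% in NCL, and no other member passed 50%. CcdA and NCL were lower in series 2, by log2 differences of -0.22 and -0.23 from series 1. Over all members 90 were lower in series 2. The median log2 difference of series 2 from series 1 was -0.032 in the members and -0.0052 in the rest. The median share of variance between the series was 7.57% in the members and 6.88% in the rest. The actin ratios given above moved with the series as well, and their part was not tested.

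The members were also examined by brightness. The brightest probe sets were AT2G26500, with a mean of 3423, CURT1A with 3226, AT1G78040 with 2317, AT1G11860 with 2300 and AT3G47070 with 1946. The dimmest were AT2G41790, AT5G61970, AT3G24180, AT3G50590 and AT5G42850, with means from 203 to 206, just over the minimum. Probe sets differ in how they bind, so these means do not rank transcript levels. In 5 bins of rising mean intensity, each of 314 or 315 ranked probe sets, the members numbered 26, 22, 25, 34 and 43. The widest ranges among the members were those of AT4G02580 (1.74-fold), AT1G32470 (1.74-fold), CYTC-1 (1.73-fold), AT5G47570 (1.73-fold) and AT3G24180 (1.72-fold).

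Between neighbouring time points the members changed by a median size of 0.075 to 0.12 on the log2 scale, and the rest by 0.15 to 0.24. Across 12 h the median size was 0.094 in the members and 0.214 in the rest. By median size the widest step of the members was from 0 to 1 h (0.119) and that of the rest from 16 to 20 h (0.241). At 1 h, 111 of 150 members and 844 of 1423 of the rest were lower than at 0 h, and the largest change of a member was 0.55. The first and last time points, 24 h apart, differed by a median size of 0.098 in the members and 0.138 in the rest. At 24 h, 64 of 150 members and 651 of 1423 of the rest were higher than at 0 h. The highest time point was 4 h in 16% of the members and 8.71% of the rest, 0 h in 15.3% and 9.70%, and 16 h in 14.7% and 11.4%. The lowest was 14 h in 18% of the members and 13.6% of the rest, 1 h in 17.3% and 9.63%, and 12 h in 15.3% and 13.9%. These shares were not tested.

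**Figure D4:**
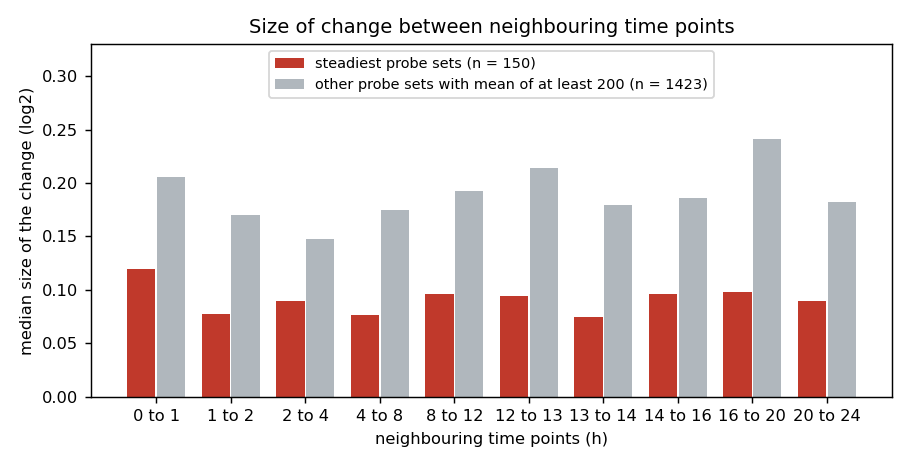
Bars give the median size of the log2 change between the means of neighbouring time points (h), red for the 150 members and grey for the other 1423 ranked probe sets. The red bars run from 0.075 to 0.12 and the grey ones from 0.15 to 0.24.

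Part of the members' spread was shared. The median deviation of the 150 members from their own means ran from -0.093, in the 13 h array of series 2, to 0.087, in the 24 h array of series 1. Of the members, 23 had their lowest value in that 13 h array, and 23 had their highest in the 16 h array of series 1. With each array's shared deviation taken out, the median SD of the members was 0.143, against 0.152 before.

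The choice was repeated within each replicate series, so that the arrays that chose a probe set were not those that measured it. The 150 with the lowest SD in series 1 had a median SD of 0.162 in series 2, where those not chosen had 0.278, and 144 of them (96%) lay under that value. The 150 chosen in series 2 had a median SD of 0.168 in series 1, where those not chosen had 0.305, and 141 (94%) lay under it. The series share their hours and their scaling, so the comparison is a description and no test of the members. The 2 choices shared 51 probe sets, 34% of each. Of the members, 41 were in both choices, among them AT4G26410, AP4M, RBP45B, SIRB, CcdA and NCL.

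**Figure D5:**
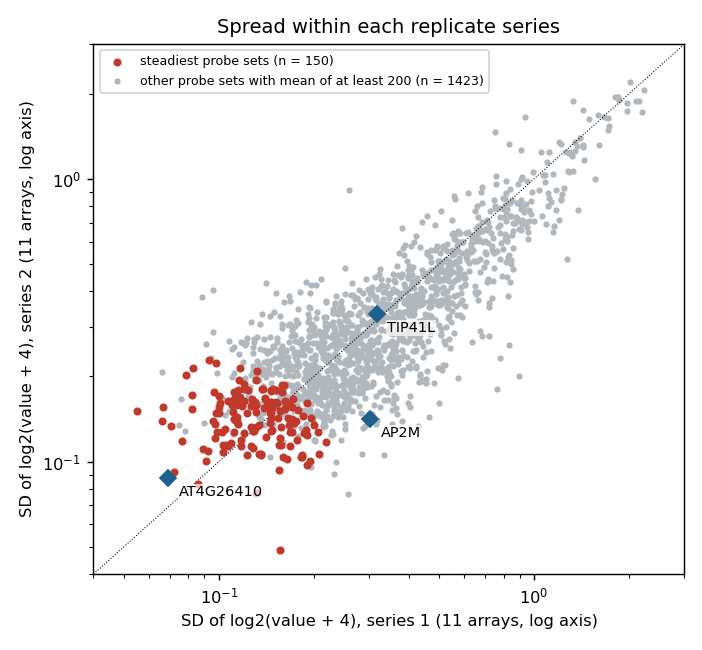
Each point is a probe set, with the SD of log2(value + 4) over the 11 arrays of replicate series 1 against that of series 2 (log axes; the dotted line marks equal values); red points are the 150 members, grey points the other 1423, and diamonds AT4G26410, AP2M and TIP41L. AP2M lies at 0.30 and 0.14, far below the line, and TIP41L near it at 0.32 and 0.33.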

How the data were processed

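The deposited values were linear intensities of 22 ATH1 arrays, 1 per probe set, scaled by the authors to the same trimmed mean (without 2% at each end), as the values show; no software is named in the labels used here. Probe sets were named from the platform annotation and RefSeq's gene table (TAIR10.1), which matched 13436 of 13513 single-gene probe sets. All 22 columns were used. The members, the name lists (20) and the reference loci were chosen with earlier results of these data known.

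SDs were taken of log2(intensity + 4). Tests used limma 3.58.1 in R 4.3.3 on the brightest 60% of probe sets. Each time point had its own mean, which left 11 degrees of freedom, and p-values were adjusted after Benjamini and Hochberg over 13648 probe sets (threshold 0.05); the number of arrays limits the precision. Named genes were the 20 lowest SDs, members of the lists, listed reference genes, and the extremes of level, range and variance share; the other named members, list genes outside the set and genes of high series share were added after their values were seen. Replicate numbers, taken from the labels, pair the arrays: over 55 pairs of time points the deviations of same-numbered arrays correlated at 0.135 to 0.633. The main tests left this pairing out, and only the alternative with the replicate series as a block included it. Scripts were tested on simulated data. Alternatives covered pseudocount, scaling, minimum mean, filter, trend, block and arrays left out.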

Additional observations from a re-analysis of the deposited data

How the results depend on the processing

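Of the 150 members, 82 were kept with a minimum mean of 100, 80 with 400 (all 80 members above that minimum), 83 in replicate series 1 only, 77 in series 2 only and 63 when unnamed probe sets also competed. Under the other settings 100 to 146 were kept, and 132 to 145 with 1 array left out. AT4G26410 was first in 27 of 36 settings and at worst eighth, after quantile normalization. The SD of TIP41L stayed between 0.24 and 0.37 and that of AP2M between 0.14 and 0.30; with 1 array left out they ran from 0.29 to 0.33 and from 0.19 to 0.25. The time course passed 6054 probe sets with the replicate block, against 3659 without it, and 3221 to 3649 with 1 array left out. The parts of the cycle differed for 2175 probe sets without the 8 h and 16 h arrays, against 3272, and for 2710 to 3244 with 1 array left out. With the replicate block 6 members passed as higher and 11 as lower from 13 to 24 h; apart from these and the time course of TIP41L, the block changed no call of a named reference gene but that of GAPC2 over the time course (adjusted p = 0.0242 in limma, against 0.504). TIP41L passed over the time course under 3 settings named above. The causes were not tested. The differences of TIP41L and AP2M between the parts of the cycle kept their sign under every alternative. Background may narrow the range of dim probe sets such as AT5G55840, so their SDs are less certain than those of the members.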

Other observations

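The members were also tried as a common scale, a setting chosen after seeing the data. With every array set to the same median over the 150 members, 1791 probe sets were higher and 1467 lower from 13 to 24 h, against 1479 higher and 1793 lower as deposited. Such a scale shifts all probe sets of an array alike and comes from members chosen on these same arrays, so the change in balance follows from the shift and says nothing of which scale is right. With equal medians over all probe sets the counts were 1299 higher and 2025 lower. No scale was compared with an outside measure.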
